A study of Mus musculus with 10 samples.

Results

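The genes that let a macrophage bind and engulf dying cells through phosphatidylserine were followed across sorted CNS-associated macrophages of mice with different numbers of Mrc1-CreERT2 alleles. The 9 members were the rows of the deposited count table named Mertk, Axl, Gas6, Pros1, Mfge8, Itgav, Itgb5, Elmo1 and Dock1, of 53546 genes in all, and all 9 were found and had enough counts to be tested. They were picked out of the table by symbol.

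The macrophages, which by this name sit at the borders of the brain, were sorted from individual untreated C57BL/6N mice aged 6 to 8 weeks. There were 4 mice with the Mrc1-CreERT2 allele on both chromosomes (Cre-Cre, replicates 1 to 4), 3 with a single copy (Cre-pos, replicates 1, 2 and 4) and 3 wild-type mice (WT, replicates 1 to 3). CreERT2 is a Cre recombinase fused to a hormone-binding piece of the oestrogen receptor so that tamoxifen can switch it on, and the name of the allele places it at Mrc1, which encodes the mannose receptor (CD206). The labels name no inducer and no floxed gene, and the sources used here do not state the gate of the sort. The comparison between genotypes is the one the series states.

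On a dying cell, phosphatidylserine appears on the outer membrane. Gas6 and protein S, the product of Pros1, bind it with one end and a TAM receptor with the other; the TAM family of receptor tyrosine kinases is named for Tyro3, Axl and Mertk. MFG-E8, the product of Mfge8, bridges phosphatidylserine to the integrins that contain the alpha V chain (Itgav), paired with the beta 5 chain (Itgb5) among others. ELMO1 and DOCK1 then act together to load Rac1 with GTP, which reshapes actin around the engulfed cell. In many macrophages Mertk serves resting uptake, while Axl is raised in inflammation.

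Values are counts per 1000000 counts of a library (CPM) with trimmed-mean scaling. Libraries held 22986972 to 36575446 counts, and the scarcest member value was 380 counts (Mfge8 in WT 3). Mrc1, the gene at which the allele sits, averaged 489 ± 48.6 CPM in Cre-Cre, 2153 ± 153 CPM in Cre-pos and 3481 ± 365 CPM in WT mice (SD, n = 4, 3 and 3), so its order followed the labelled genotypes. All 12 border macrophage markers had counts in each genotype, and their summed level was 20350 to 20813 CPM in Cre-Cre, 17034 to 20028 CPM in Cre-pos and 17747 to 19353 CPM in WT libraries. That sum includes Mrc1, whose own fall in Cre-Cre makes the sums more alike than the other markers were. The median log2 fold change of the 12 markers in Cre-Cre against WT was 0.42, against 0.02 over all genes. All 8 microglial markers had counts too, summing to 2087 to 3212 CPM in Cre-Cre, 4259 to 6422 CPM in Cre-pos and 4184 to 9692 CPM in WT libraries, with the highest in WT 3. WT 3 also had the highest summed level of the 9 members, 6000 CPM, against 3861 to 4739 CPM in the Cre-Cre, 4123 to 4621 CPM in the Cre-pos and 3953 and 4331 CPM in the other WT libraries. WT 3 is also the only WT library whose title carries the letter f; letters m and f matched the Y-linked and Xist counts in 10 of 10 libraries. In bulk RNA, fewer cells of a type and less RNA per cell cannot be told apart.

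The promoter windows of Axl, Gas6 and Dock1 are shown because these were the members whose Cre-Cre and WT values did not overlap. They run from 250 bases before to 50 after the annotated start in RefSeq on GRCm38.p6, which named promoters for all 9 members, 10 windows in all. They are written 5′ to 3′ on the gene's strand, with the GC box (GGGCGG, or CCGCCC on the other strand) in capitals; overlapping boxes run together. Axl lies on the minus strand at chr7:25788684-25788983, Gas6 on the minus strand at chr8:13494486-13494785 and Dock1 on the plus strand at chr7:134670437-134670736.
Axl: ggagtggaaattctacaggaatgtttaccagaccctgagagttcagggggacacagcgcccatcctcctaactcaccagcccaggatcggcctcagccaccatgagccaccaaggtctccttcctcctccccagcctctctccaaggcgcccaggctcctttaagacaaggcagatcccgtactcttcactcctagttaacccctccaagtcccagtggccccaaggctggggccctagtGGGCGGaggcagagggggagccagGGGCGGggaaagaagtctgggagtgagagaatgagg
Gas6: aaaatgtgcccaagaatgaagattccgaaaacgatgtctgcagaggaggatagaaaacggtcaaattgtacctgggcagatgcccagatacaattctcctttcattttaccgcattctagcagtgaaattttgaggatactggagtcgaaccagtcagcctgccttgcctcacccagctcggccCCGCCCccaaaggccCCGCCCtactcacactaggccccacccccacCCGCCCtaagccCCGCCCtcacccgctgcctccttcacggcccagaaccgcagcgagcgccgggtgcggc
Dock1: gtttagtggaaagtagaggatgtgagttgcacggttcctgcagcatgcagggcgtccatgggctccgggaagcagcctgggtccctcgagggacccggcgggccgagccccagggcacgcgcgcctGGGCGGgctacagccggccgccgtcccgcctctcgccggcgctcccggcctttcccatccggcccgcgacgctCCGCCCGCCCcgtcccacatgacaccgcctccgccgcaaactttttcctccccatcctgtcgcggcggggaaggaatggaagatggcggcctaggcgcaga
Axl held 2 GC boxes, Gas6 held 4 and Dock1 held 3. A GC box on either strand was found in 9 of the 10 member windows, against 35.66% of all 32851 RefSeq promoter windows. The share of G and C letters was 58.3% to 70.7% in those 9 and 46.0% in the other, an Elmo1 window. The median over all windows was 52.7%, and the GC box count was not adjusted for this. The core of the PU.1 motif, GAGGAA, was in 5 of the 10, against 28.28% of all, and TATAAA was in 1 of the 10, against 13.62%, each counted on both strands. PU.1 is the transcription factor that macrophages need for their identity, and a match says only that these letters are in the window.

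The TAM receptors differed in how they varied among the mice. Mertk was measured at 282, 211, 223 and 279 CPM in Cre-Cre 1 to 4, at 210, 241 and 194 CPM in Cre-pos 1, 2 and 4, and at 275, 278 and 200 CPM in WT 1 to 3. The genotypes overlapped throughout, and the means were 249 ± 37.0 CPM in Cre-Cre, 215 ± 23.5 CPM in Cre-pos and 251 ± 43.9 CPM in WT mice (SD, n = 4, 3 and 3). In Cre-Cre against WT its log2 fold change was -0.01 (95% interval -0.37 to 0.35, edgeR quasi-likelihood test), so a difference of either sign within that interval remains possible.

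Axl was measured at 271, 309, 472 and 492 CPM in Cre-Cre 1 to 4, at 702, 462 and 653 CPM in Cre-pos 1, 2 and 4, and at 847, 651 and 1397 CPM in WT 1 to 3. Every Cre-Cre value lay below every WT value, and the Cre-pos values overlapped both. The means were 386.2 ± 112 CPM in Cre-Cre, 606 ± 127 CPM in Cre-pos and 965 ± 386.5 CPM in WT mice (SD, n = 4, 3 and 3), which puts Cre-Cre at 40.0% of WT in the fitted model. The log2 fold change of Cre-Cre against WT was -1.32 (SE 0.29, 95% interval -1.96 to -0.68), and it did not pass the test over all 14023 genes (unadjusted p = 0.000977, edgeR adjusted p = 0.276). Against WT, Cre-pos had a log2 fold change of -0.67 (SE 0.31, edgeR adjusted p = 0.791). Cre-Cre against Cre-pos gave a log2 fold change of -0.65 (SE 0.29, edgeR adjusted p = 1.0).

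Whether Axl was called depended on the tool and the covariates. DESeq2 on the same counts gave a log2 fold change of -1.34 for Cre-Cre against WT with an adjusted p of 7.76e-05, and edgeR with the title letter as a covariate gave -1.41 with an adjusted p of 0.0404. Over the alternatives tried, the adjusted p ran from 7.76e-05 to 0.6248, and without WT 3 the log2 fold change was -0.95 (edgeR adjusted p = 0.366). Within the letter m, the log2 ratio of the Cre-Cre to the WT mean was -1.37 (2 libraries each), and within f it was -1.53 (2 Cre-Cre libraries and only WT 3). The microglial marker sum given above did not overlap between Cre-Cre and WT either. Tmem119, a defining microglial gene, was at 86.2, 130, 127 and 100 CPM in Cre-Cre 1 to 4, at 294, 336 and 512 CPM in Cre-pos 1, 2 and 4 and at 258, 347 and 824 CPM in WT 1 to 3. The 6 monocyte markers were likewise lowest in Cre-Cre, summing to 5.72 to 17.5 CPM in Cre-Cre, 49.1 to 68.0 CPM in Cre-pos and 75.7 to 198 CPM in WT libraries, with Chil3 at 0 in all of them. The part of microglia and monocytes in the Axl difference was not tested.

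**Figure D1:**
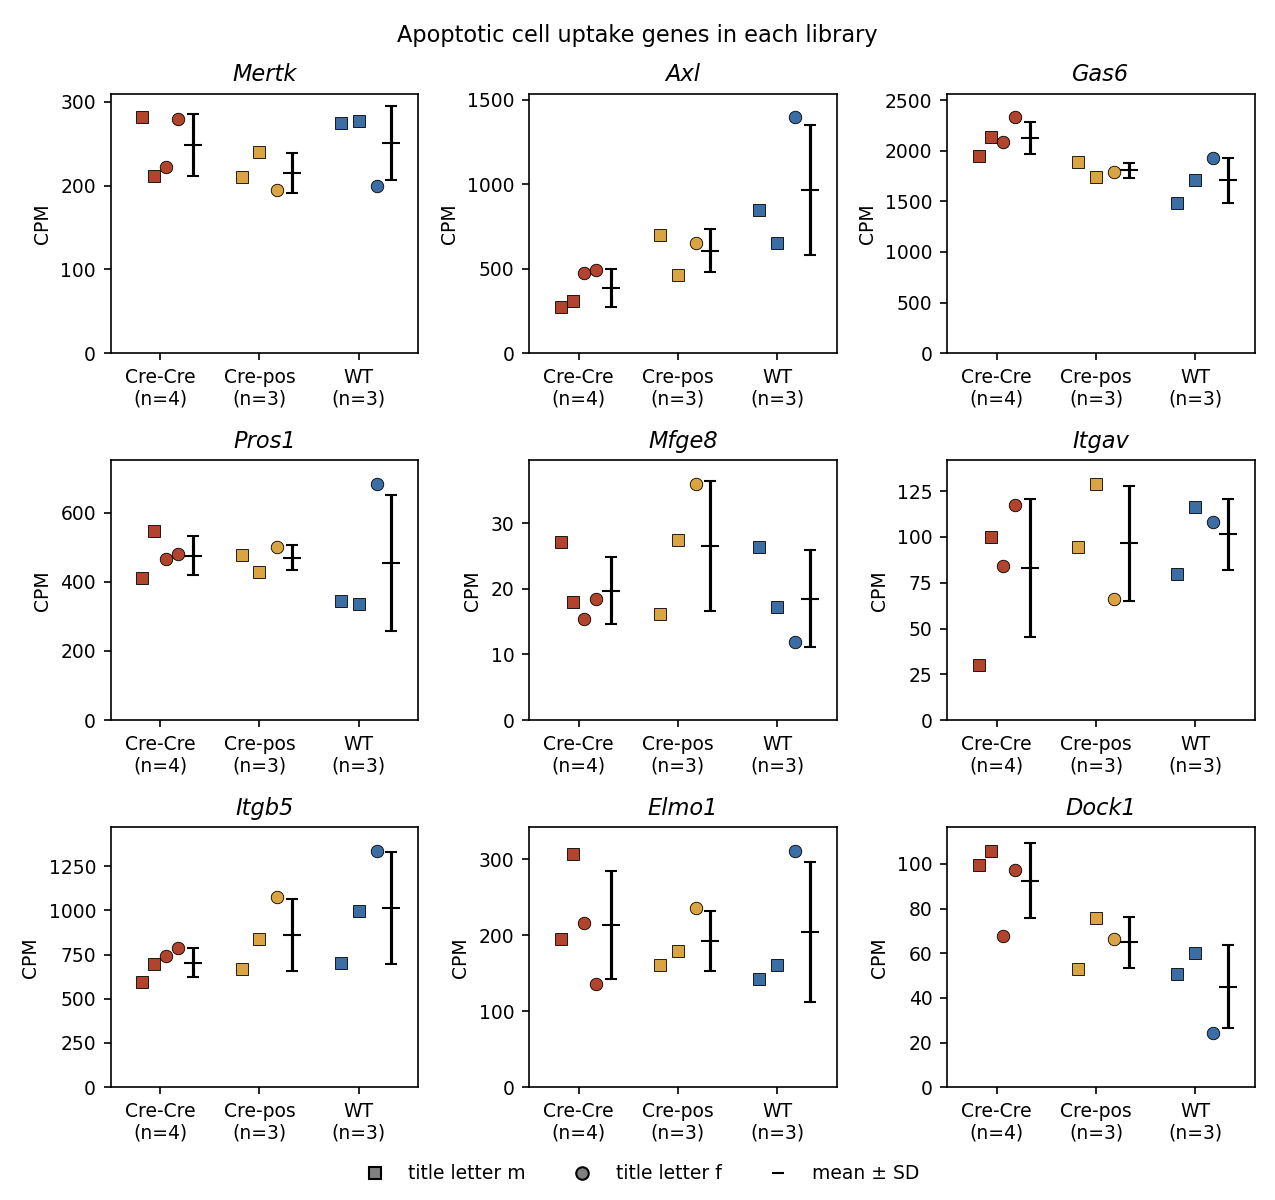
Level of each of the 9 genes in CPM (linear axis from 0) in every library, by genotype, with squares for libraries of title letter m, circles for letter f and bars for the mean ± SD. For Axl the 4 Cre-Cre points, up to 492 CPM, lie below the 3 WT points, from 651 CPM up, while the Mertk points of all genotypes lie between 194 and 282 CPM.

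Per kilobase of exon, Axl stood at 0.830 to 1.83 times Mertk in the Cre-Cre libraries, at 1.65 to 2.90 times in the Cre-pos libraries and at 2.02 to 6.01 times in the WT libraries. These ratios did not overlap between Cre-Cre and WT, as was the case for Axl itself. The third TAM receptor, Tyro3, was left untested because its counts were too low, at a mean of 0.0211 CPM over the 10 libraries.

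Of the bridging molecules, Gas6 was the member with the highest level and the tightest spread. It was measured at 1950, 2134, 2087 and 2332 CPM in Cre-Cre 1 to 4, at 1888, 1742 and 1793 CPM in Cre-pos 1, 2 and 4, and at 1483, 1713 and 1931 CPM in WT 1 to 3. The lowest Cre-Cre library stood above the highest WT and Cre-pos libraries, by a small margin, while Cre-pos and WT overlapped. The log2 fold change was 0.32 for Cre-Cre against WT (SE 0.10, edgeR adjusted p = 0.534), 0.23 for Cre-Cre against Cre-pos (SE 0.10, edgeR adjusted p = 1.0) and 0.08 for Cre-pos against WT (SE 0.10, edgeR adjusted p = 1.0), so none was called. Tmem255b shares 34 bases of exon with Gas6 on the other strand and held at most 4 counts in a library.

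Pros1 was measured at 411, 546, 465 and 480 CPM in Cre-Cre 1 to 4, at 479, 429 and 502 CPM in Cre-pos 1, 2 and 4, and at 346, 336 and 682 CPM in WT 1 to 3. WT 1 and WT 2 lay below all other libraries and WT 3 above them. Its log2 fold change of Cre-Cre against WT was 0.06 with all libraries and 0.48 without WT 3 (edgeR adjusted p = 0.353 without it). Mfge8 was the lowest member, at 15.3 to 27.1 CPM in Cre-Cre, 16.2 to 35.9 CPM in Cre-pos and 11.8 to 26.4 CPM in WT libraries, and its genotypes overlapped. Its log2 fold change of Cre-Cre against WT was 0.09 (SE 0.40), and it was below 0 (-0.15) without WT 3. Per kilobase, Gas6 stood at 6.27 to 7.80 times Pros1 in Cre-Cre, 5.74 to 6.52 times in Cre-pos and 4.54 to 8.17 times in WT libraries, ranges that overlapped between Cre-Cre and each of the others.

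The integrin chains differed in level and in spread. Itgb5 was measured at 594, 694, 743 and 788 CPM in Cre-Cre 1 to 4, at 666, 838 and 1074 CPM in Cre-pos 1, 2 and 4, and at 704, 998 and 1335 CPM in WT 1 to 3. The highest values were in WT 3 and Cre-pos 4, but the genotypes overlapped. These libraries also had the highest microglial marker sums, 9692 and 6422 CPM. The log2 fold change of Itgb5 was -0.52 for Cre-Cre against WT (SE 0.22, edgeR adjusted p = 0.653) and -0.27 without WT 3. The part of microglia in the Itgb5 difference was not tested. Itgav was at 30.3 to 117 CPM in Cre-Cre, 66.2 to 129 CPM in Cre-pos and 79.7 to 116 CPM in WT libraries. The single low value, 30.3 CPM in Cre-Cre 1, set the lower end, and the log2 fold change of -0.29 for Cre-Cre against WT had an SE of 0.40. The gene Gm13684 lies on the other strand over 634 bases of Itgav exon, and held at most 82 counts in a library; the kit does not mark the strand.

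Of the engulfment pair, Dock1 was separated between Cre-Cre and WT, without passing the test, and Elmo1 was not. Dock1 was measured at 99.4, 106, 67.7 and 97.3 CPM in Cre-Cre 1 to 4, at 52.8, 75.6 and 66.3 CPM in Cre-pos 1, 2 and 4, and at 50.8, 60.0 and 24.3 CPM in WT 1 to 3. Each Cre-Cre value was above each WT value, and Cre-pos overlapped both. The log2 fold change was 1.04 for Cre-Cre against WT (SE 0.31, edgeR adjusted p = 0.499), 0.53 for Cre-pos against WT (SE 0.32, edgeR adjusted p = 0.874) and 0.51 for Cre-Cre against Cre-pos (SE 0.30, edgeR adjusted p = 1.0), none of which was called. Without WT 3, which had the lowest Dock1 value, the Cre-Cre against WT value was 0.74.

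Elmo1 was measured at 195, 307, 217 and 135 CPM in Cre-Cre 1 to 4, at 161, 179 and 237 CPM in Cre-pos 1, 2 and 4, and at 142, 161 and 311 CPM in WT 1 to 3. Cre-Cre 2 and WT 3 were the highest, and every pair of genotypes overlapped. Cre-Cre against WT gave a log2 fold change of 0.06 (SE 0.32), and 0.50 without WT 3. Gm32036 lies antisense over 403 bases of Elmo1 exon and held at most 28 counts.

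**Figure D2:**
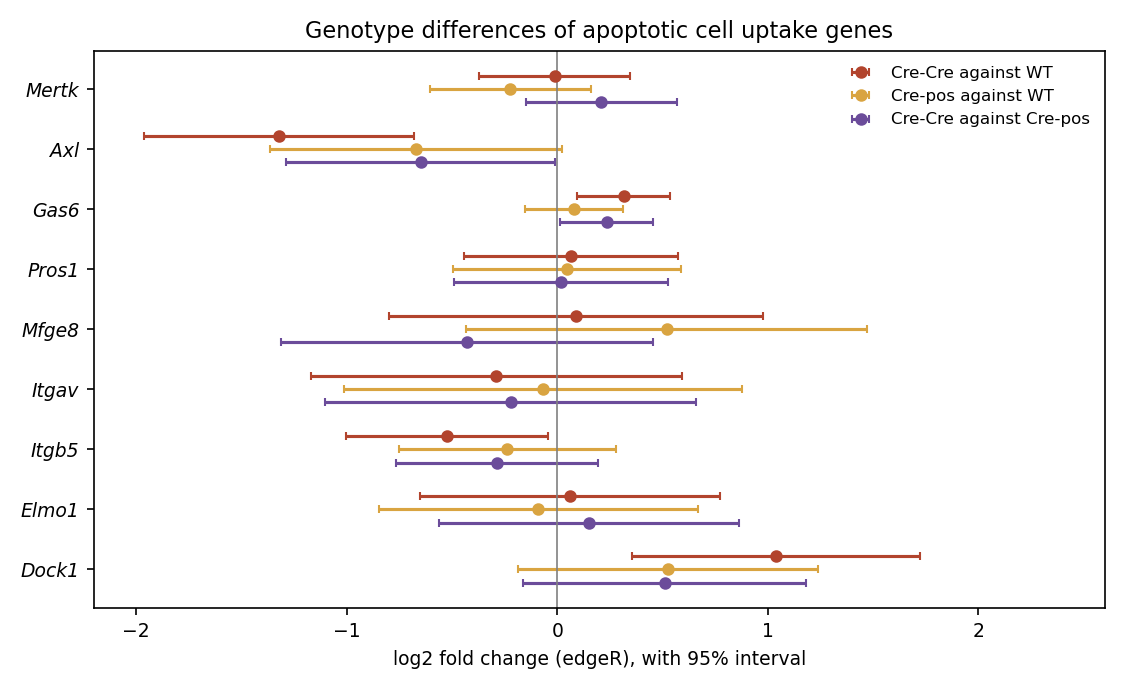
edgeR log2 fold change of each gene (points) with its 95% interval (bars), for Cre-Cre against WT, Cre-pos against WT and Cre-Cre against Cre-pos; 0 is no difference. Axl at -1.32 and Dock1 at 1.04 lie farthest from 0 in Cre-Cre against WT, and the Mertk interval spans -0.37 to 0.35.

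Set against all genes, no member passed the test, while Axl, Gas6, Itgb5 and Dock1 had low unadjusted p-values in Cre-Cre against WT. In Cre-Cre against WT, edgeR called 0 of the 9 members, where 0.0642% of all genes were called (9 of 14023). At an unadjusted p under 0.05 there were 4 of 9, a larger share than the 7.52% of all genes; DESeq2 called 1 (Axl), where it called 2.19% of the genes it gave an adjusted p, and limma-voom called 0, where it called 0.0713% of all genes. The groups did not overlap for 3 of 9 (Axl lower, Gas6 and Dock1 higher), against 7.97% of all genes in either direction. The median log2 fold change was 0.06 over the members and 0.02 over all genes. The SE was 0.10 to 0.40 for the members, against a median of 0.61 over all genes. The shares over all genes, here and below, were not matched to the members for level or spread. In Cre-pos against WT, edgeR and limma-voom called 0 of 9, where each called 0% of all genes. DESeq2 called 0 of 9, where it called 1.72% of genes, and 0 had an unadjusted p under 0.05, where 5.82% of all genes had. All 9 members overlapped between Cre-pos and WT, where 9.6% of all genes did not overlap. In Cre-Cre against Cre-pos 0 of 9 were called by edgeR, DESeq2 or limma-voom, where 0.0214%, 0.899% and 0.0143% of genes were called. There 2 had an unadjusted p under 0.05 (Axl and Gas6), against 4.86% of all genes, and Gas6 alone did not overlap, against 7.47% of all genes.

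These comparisons share libraries, so they are not independent. In a fit with the number of alleles (0, 1 or 2) as a numeric term, which uses the order of the genotypes in a single test, edgeR again called 0 of 9 members, where 0.0428% of all genes were called, and 4 had an unadjusted p under 0.05, against 5.78% of all genes. The slope per allele was -0.66 log2 units for Axl (SE 0.14, edgeR adjusted p = 0.194), 0.52 for Dock1 (SE 0.14, edgeR adjusted p = 0.414), 0.16 for Gas6 (SE 0.05, edgeR adjusted p = 0.458) and -0.26 for Itgb5 (SE 0.10, edgeR adjusted p = 0.740). DESeq2 called the Axl slope (-0.67, adjusted p = 0.000152), where it called 1.34% of genes, and so did edgeR with the title letter as a covariate (-0.71, adjusted p = 0.0325).

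The title letter itself, adjusted for genotype, was tested over the 6 libraries marked m and the 4 marked f. edgeR called 0 of 9 members, where 0.0214% of all genes were called, and Axl and Itgb5 had an unadjusted p under 0.05, against 6.14% of all genes. The log2 difference, m minus f, was -0.63 for Axl (SE 0.16, edgeR adjusted p = 0.668) and -0.44 for Itgb5 (SE 0.12, edgeR adjusted p = 0.684), both of which DESeq2 called, where it called 1.36% of genes. The interaction of letter and number of alleles was called for 0 of 9 members by edgeR, where 0% of all genes were called, and 2 had an unadjusted p under 0.05 (Pros1 and Elmo1), against 4.64% of all genes. DESeq2 called both, where it called 1.6% of genes. WT 3 is the only WT library marked f, so its values stand behind every such difference at the WT end.

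Per kilobase of exon, using exon lengths from GENCODE vM21, the members fell in the order Gas6 (748), Itgb5 (237), Axl (124), Pros1 (114), Mertk (55.2), Elmo1 (16.3), Itgav (8.61), Dock1 (7.502) and Mfge8 (4.56 CPM per kilobase, means over 10 libraries). Neighbours were in the same order in all 10 libraries for Gas6 over Itgb5, Itgb5 over Axl, Pros1 over Mertk and Mertk over Elmo1. Axl and Pros1 did not keep one order: Axl stood above Pros1 in 0 of 4 Cre-Cre, 2 of 3 Cre-pos and 3 of 3 WT libraries. Elmo1 over Itgav held in 9 of 10 libraries, Itgav over Dock1 in 7 of 10 and Dock1 over Mfge8 in 8 of 10, so the lower end of the order was not separated in every library.

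**Figure D3:**
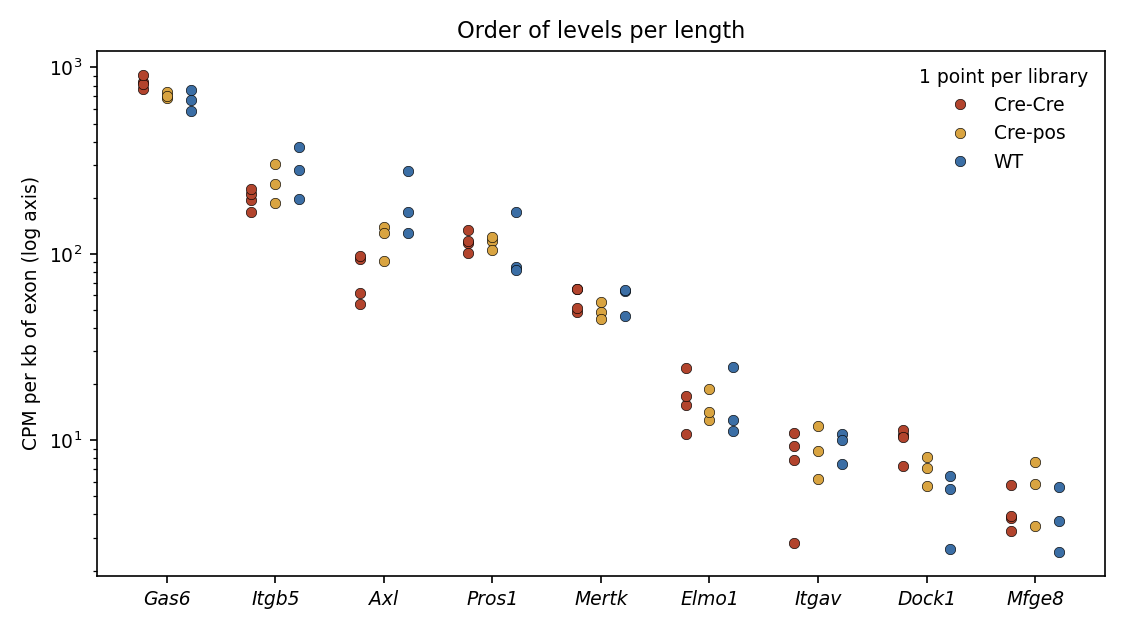
Level per kilobase of exon (log axis) of each gene in every library, genes in order of the mean, a point per library and a colour per genotype. Gas6 lies at the top at a mean of 748 CPM per kilobase and Mfge8 at the bottom at 4.56, and the Cre-Cre points of Axl lie below those of Pros1.

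The genes whose level moved most like each TAM receptor over the 10 libraries were found by the root mean square difference of their log2 CPM, centred on each gene's mean, among 6442 other genes with a mean of at least 20 CPM. The nearest to Mertk were Samhd1 (0.11), Nop10 (0.14) and Srrm1 (0.15), where the median gene was at 0.44. Mertk varied little, with a root mean square of 0.21 about its own mean, so nearness to it means above all a flat level. Among the nearest to Axl were Cd52 (0.31) and Dtx4 (0.32), where the median gene was at 0.76 and Axl's own spread was 0.66. Between the receptors the difference was 0.74.

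Beside the 9 members, 81 further genes of apoptotic cell uptake were grouped by role, and 70 had enough counts to be tested. None of the 70 was called by edgeR in the comparisons of genotypes in pairs, while 11, 5 and 8 had an unadjusted p under 0.05 in Cre-Cre against WT, Cre-pos against WT and Cre-Cre against Cre-pos, where 7.52%, 5.82% and 4.86% of all genes had. In Cre-Cre against WT, DESeq2 called 5 of the 70 (among them Stab1, Cd24a, Gpr132 and Edil3), where it called 2.19% of genes, and limma-voom called 1 (Stab1), where it called 0.0713%. DESeq2 also called 1 in Cre-pos against WT (Cd24a) and 1 in Cre-Cre against Cre-pos (Gpr132), where it called 1.72% and 0.899% of genes. Cd24a, Gpr132 and Edil3 were near the floor, at means of 1.84, 0.737 and 1.74 CPM over the 10 libraries. Cd24a and Edil3 averaged 0 CPM in WT and Gpr132 averaged 0 CPM in Cre-Cre mice. Their edgeR adjusted p in Cre-Cre against WT was 0.707, 0.391 and 0.606. The 70 genes' median log2 fold change in Cre-Cre against WT was 0.03, against 0.02 over all genes. Genes with too few counts included the receptor Tyro3, the phosphatidylserine receptor Havcr1 and the engulfment receptor Megf10.

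Among the other phosphatidylserine receptors, Stab1, a scavenger receptor that also binds phosphatidylserine, rose with the number of alleles, by 0.27 log2 units per allele (SE 0.04, edgeR adjusted p = 0.0419). It was the single gene of the 70 that edgeR called in that trend, where 0.0428% of all genes were called; DESeq2 called 4 of the 70, Stab1 among them, where it called 1.34% of genes. Stab1 was measured at 3739, 3435, 3177 and 3275 CPM in Cre-Cre 1 to 4, at 2717, 2833 and 3114 CPM in Cre-pos 1, 2 and 4, and at 2265, 2346 and 2438 CPM in WT 1 to 3. No genotype overlapped another. Stab1 also belongs to the border macrophage markers summed above, and its rise was not particular to it. Lyve1, Cd163, Pf4, Cbr2, Dab2 and Clec10a of that list were also higher in every Cre-Cre than in every WT library. F13a1, Ms4a7, Siglec1 and Folr2 overlapped, and Mrc1 was lower. Over all genes, 7.97% did not overlap in either direction. Whether Stab1 rose apart from these markers was not tested. The log2 fold change of Stab1 in Cre-Cre against WT was 0.54 (SE 0.08, edgeR adjusted p = 0.0567). The call in the trend was lost without any library other than Cre-pos 4 (edgeR adjusted p from 0.0636 to 0.173), with DESeq2's size factors (0.0696), without robust estimation (0.0687) and with the title letter as a covariate (0.0531). Trem2, a lipid-binding receptor of macrophages, was at 442 to 518 CPM in Cre-Cre, 524 to 760 CPM in Cre-pos and 531 to 661 CPM in WT libraries, with Cre-Cre below both others (Cre-Cre against WT log2 fold change -0.33, edgeR adjusted p = 0.653).

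Of the transcriptional regulators, Maf, a factor of macrophage identity, was at 569 to 677 CPM in Cre-Cre, 518 to 669 CPM in Cre-pos and 466 to 771 CPM in WT libraries, and overlapped between genotypes.

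**Figure D4:**
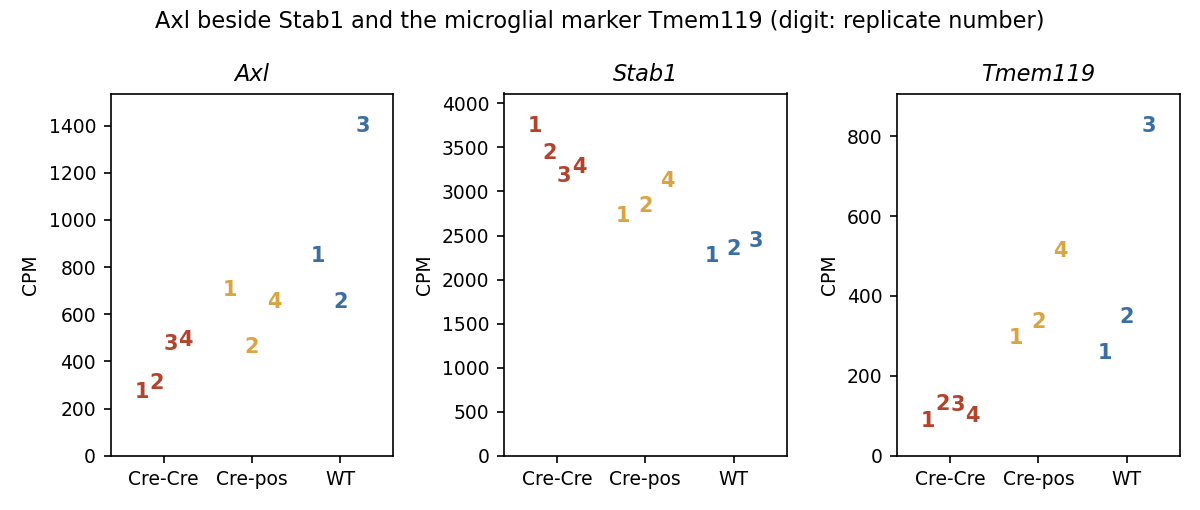
CPM (linear axis from 0) of Axl, Stab1 and the microglial marker Tmem119 in each library, by genotype, each digit marking the library's replicate number. Axl and Tmem119 are highest in WT 3, at 1397 and 824 CPM, while Stab1 is highest in Cre-Cre 1 at 3739 CPM.

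The abundant genes of the roles that follow overlapped between Cre-Cre and WT, apart from Lgals3. Lgals3, galectin-3, a further ligand of Mertk, was at 5.16 to 44.9 CPM in Cre-Cre, 14.1 to 27.2 CPM in Cre-pos and 47.8 to 75.8 CPM in WT libraries (Cre-Cre against WT log2 fold change -1.61, SE 0.60, edgeR adjusted p = 0.624). C1qc and C1qb, chains of the complement protein C1q that coats dying cells, were the highest of all, at 9168 to 9801 and 8328 to 9244 CPM in Cre-Cre and at 7578 to 9482 and 7928 to 9244 CPM in WT libraries. The lipopolysaccharide co-receptor Cd14 was at 758 to 1070 CPM in Cre-Cre and 859 to 1058 CPM in WT libraries, and Cd36, a scavenger receptor, at 329 to 612 CPM in Cre-Cre and 334 to 473 CPM in WT libraries. Sirpa, the receptor of the "do not eat me" signal, was at 1685 to 1964 CPM in Cre-Cre and 1589 to 1904 CPM in WT libraries, and its ligand Cd47 at 376 to 476 CPM in Cre-Cre and 446 to 506 CPM in WT libraries.

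Cx3cr1, the receptor for the find-me signal CX3CL1, was at 2229 to 2781 CPM in Cre-Cre, 2974 to 3067 CPM in Cre-pos and 2179 to 3448 CPM in WT libraries, and P2ry6, a nucleotide receptor, at 546 to 657 CPM in Cre-Cre and 531 to 651 CPM in WT libraries. Of the signalling genes, Rac1, the GTPase that ELMO1 and DOCK1 act on, was at 709 to 786 CPM in Cre-Cre and 620 to 810 CPM in WT libraries, and Rhog, which recruits ELMO1, at 308 to 365 CPM in Cre-Cre and 340 to 430 CPM in WT libraries. Cybb, a NADPH oxidase chain used on engulfed cargo, was at 799 to 993 CPM in Cre-Cre and 903 to 1012 CPM in WT libraries, and the cholesterol exporter Abca1 at 337 to 638 CPM in Cre-Cre and 337 to 465 CPM in WT libraries. edgeR called no gene of the find-me receptors, engulfment signalling or cargo handling, where it called 0.0642% of all genes in Cre-Cre against WT. In that comparison 1 of 5, 1 of 8 and 3 of 14 tested genes had an unadjusted p under 0.05, against 7.52% of all genes. DESeq2 called Gpr132, of the find-me receptors, in Cre-Cre against WT, in Cre-Cre against Cre-pos and in the trend. These calls share the Cre-Cre libraries, and Gpr132 averaged only 0 CPM in Cre-Cre, 1.71 CPM in Cre-pos and 0.746 CPM in WT mice. The edgeR adjusted p was 0.391, 0.737 and 0.952. The proteases that shed TAM receptors, Adam10 and Adam17, were at 218 to 275 and 213 to 332 CPM in Cre-Cre and at 208 to 271 and 195 to 322 CPM in WT libraries. The interferon receptor chain Ifnar1 and the kinase Akt1, which TAM signalling works through, were at 216 to 321 and 222 to 330 CPM in Cre-Cre and at 207 to 388 and 202 to 277 CPM in WT libraries.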

How the data were processed

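Bulk RNA from 10 libraries was measured. The authors deposited a table of raw read counts per gene symbol. The labels' protocols give 500 pg of RNA as input to SMARTer Ultra Low Input v4 and Nextera XT, a chemistry that does not mark the strand. All libraries carry 1 batch label. The submitters' processing notes name featureCounts 2.0.2, STAR 2.7.8a and bcl2fastq 2.20. The sources used here state no genome build, annotation or strand setting.

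Genes passing filterByExpr (minimum count 10, minimum total 15) numbered 14023. edgeR 4.0.16 (R 4.3.3) fitted genotype with all 10 libraries (quasi-likelihood, robust, trimmed-mean factors), and p-values were adjusted by Benjamini-Hochberg over all genes, called under 0.05. The test was tried on simulated counts. Alternatives swapped the tool (DESeq2 1.42.0, limma-voom 3.58.1), scaled edgeR by the size factors of DESeq2, dropped or tightened the filter (1 CPM in 3 libraries with a mean count of at least 10), dropped robust estimation, added the title letter or a replicate block, or left out a genotype or a library. SEs come from the fold change and F value. Exon lengths were taken from GENCODE vM21, for which 93.5% of symbols matched. No pair of replicates agreed within sampling noise. Replicates are individual mice.

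The members, lists and tests were chosen with earlier results of these data known. The genes named are the members, Mrc1, called pathway genes, the 2 most abundant tested genes of each role, and the 3 nearest to Mertk and to Axl; Tmem119, the genes DESeq2 called and untested examples were named after their values were seen. Not every gene that meets this rule is reported here. Figures were drawn with matplotlib 3.10.9.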

Additional observations from a re-analysis of the deposited data

How the results depend on the processing

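Between genotypes in pairs, in the trend and for the title letter, the number of all genes called depended on the tool. In Cre-Cre against WT edgeR called 9 genes, DESeq2 called 294, the fit with the title letter 17, the fit on only these genotypes 2, and leaving out a library 2 to 12. In Cre-pos against WT the counts were 0 with edgeR and 236 with DESeq2. In Cre-Cre against Cre-pos they were 3 with edgeR, 123 with DESeq2, 1 without robust estimation, with the title letter or on only these genotypes, and 1 to 2 with a library left out. The trend had 6 calls, 179 with DESeq2, 12 with limma-voom and 2 to 6 with a library left out. For the letter, 3 calls became 11 with no count filter, 7 with a stricter one, 183 with DESeq2, 6 with limma-voom and 0 to 3 with a library left out; for the interaction, 0 became 1 with no count filter and 224 with DESeq2. The alternatives for the letter and the interaction were chosen after seeing the data. Of the members, DESeq2 called 1 in Cre-Cre against WT and 1 in the trend (Axl in both), 2 for the letter (Axl, Itgb5) and 2 for the interaction (Elmo1, Pros1), and the title letter covariate 1 in Cre-Cre against WT and 1 in the trend (Axl). The cause was not tested.

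Members near 0 changed sign. In Cre-Cre against WT, Mertk was 0.031 with the title letter, and with a library left out Mertk ran from -0.15 to 0.068, Mfge8 from -0.15 to 0.44, Pros1 from -0.11 to 0.48 and Elmo1 from -0.17 to 0.50. In Cre-pos against WT the leave-one-out ranges were -0.30 to 0.34 for Elmo1, -0.13 to 0.46 for Pros1, -0.33 to 0.13 for Itgav, -0.015 to 0.18 for Gas6 and -0.44 to 0.015 for Itgb5. In Cre-Cre against Cre-pos they were -0.43 to 0.064 for Itgav, -0.057 to 0.088 for Pros1 and -0.077 to 0.34 for Elmo1, and Pros1 was -0.029 with the title letter. Axl, Gas6, Itgb5 and Dock1 kept their direction in Cre-Cre against WT under every alternative tried. The order of levels per length was the same without length division and with the longest transcript.

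The replicate numbers did not pair the libraries: same-numbered libraries had correlations of their deviations from -0.012 to 0.035. With the replicate number as a block, edgeR called 1 gene in Cre-Cre against WT, 1 in Cre-Cre against Cre-pos, 0 in the trend (adjusted p of Stab1 0.206) and 0 for the letter; Elmo1 was 0.19 in Cre-pos against WT and -0.0084 in Cre-Cre against Cre-pos, where Pros1 was -0.084.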
